A study of Mus musculus with 7 samples.

Results

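Cycling intermediate progenitors of the embryonic mouse cortex were set against cycling apical progenitors of the same libraries. Intermediate cells were those the authors had placed in cluster 7 (label 7), and apical cells were those of clusters 3 and 10 (labels 3 and 10). The clusters were deposited as numbers without names. A library was used where it held at least 10 cells a side and belonged to the E12.5, E14.5 or E15.5 samples. This left 6 libraries with 443 label 7 cells and 1248 cells of labels 3 and 10 (868 of label 3 and 380 of label 10), together 1691 of the 10261 cells of the series. The whole series held 497 cells of label 7 and 1336 of labels 3 and 10.

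All cells came from the dorsal forebrain of embryos of CD-1, an outbred mouse strain, with no genotype or treatment labelled. Papain was used to free the cells, and Drop-seq to capture them one by one, an assay that counts the messages of each cell by unique molecular identifiers (UMIs). The E12.5 sample gave libraries E12_1 and E12_2, the E14.5 samples gave E14_1, E14_2.1 and, for the second of them, E14_2.2, and the E15.5 sample gave E15_1. E14_2.1 was placed in the larger E14.5 sample by inference, since its label lists a library E14_2. The labels do not say how many embryos were pooled, nor whether the libraries of one sample held different tissue. The p-values therefore measure how the difference between the sides varied over libraries, and this variation may be technical. Label 7 had 151, 157, 51, 42, 10 and 32 cells in these 6 libraries, in this order, and labels 3 and 10 had 361, 305, 321, 173, 42 and 46. E14_2.2 thus stood at the minimum of 10 label 7 cells. Just outside it, E10_2 had 9 label 7 cells and 6 of labels 3 and 10, and the other E15.5 library, E15_2, had 9 and 18. E10_1 had 16 and 23 cells but belongs to another sample and was used only as an addition.

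Apical progenitors, or radial glia, line the ventricle of the cortex, divide at its surface and keep a long fibre to the outer surface of the brain. Some of their daughters leave the ventricle and become intermediate progenitors, which lose apical contact, express the T-box factor Eomes, and divide mostly to make excitatory neurons. Notch signalling, in which a cell with ligand activates the receptor of its neighbour, holds apical cells undifferentiated through the Hes and Hey repressors, while proneural factors such as Neurog2 drive cells toward the intermediate and neuronal states and raise the ligands.

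The counts of each side were summed per library. Label 7 sums held 41296 to 425987 UMIs and sums of labels 3 and 10 held 167591 to 940637, with medians per cell of 1734 to 3349 UMIs in label 7 and 1984.5 to 4237.5 UMIs in labels 3 and 10. Each label 7 median was below that of labels 3 and 10 in its library. The median mitochondrial share in E15_1 was 5.86% in label 7 and 5.94% in labels 3 and 10. In the other 5 libraries it was 1.58% to 3.40% in label 7 and 1.72% to 3.42% in labels 3 and 10. No cell of either side had over 2% haemoglobin UMIs, and 1 of 1689 cell barcodes occurred in more than 1 of the libraries. The share of label 3 among the apical cells was 76.7%, 74.8%, 67.9%, 63.6%, 52.4% and 28.3% from E12_1 to E15_1. Its share of the apical UMIs, which the sums use, was 67.0%, 67.0%, 56.0%, 57.3%, 37.9% and 10.6% in the same order. The make-up of the apical side thus moved with stage.

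Levels are given as counts per 1000000 of the side's summed UMIs (CPM), in the order E12_1, E12_2, E14_1, E14_2.1, E14_2.2, E15_1. Raw counts given without a named library or pool are sums over the 6 libraries. There 1 count was 0.898 CPM in label 7 and 0.288 CPM in labels 3 and 10, so equal counts are not equal levels. Differences are log2 folds of label 7 over labels 3 and 10 with the library as a block, and a gene was called at an edgeR adjusted p under 0.05. The authors' clusters were built from these same counts. A call here therefore says how repeatable a difference was over libraries and is no independent evidence that the gene separates the cells.

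Of 5000 genes tested, 560 (11.2%) were higher in label 7 and 544 (10.9%) were lower, together 22.1%. At least 2-fold differences were called for 195 genes in the higher direction and 237 in the lower. The median log2 fold over all tested genes was -0.03. The levels of both sides did not overlap for 379 genes (7.58%), and 761 of the 1104 called genes had the same sign in all 6 libraries. With the libraries summed per sample, 1000 of the called genes could be tested, of which 610 were called with the same sign and 0 had the opposite sign, in a design with fewer replicates.

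**Figure D1:**
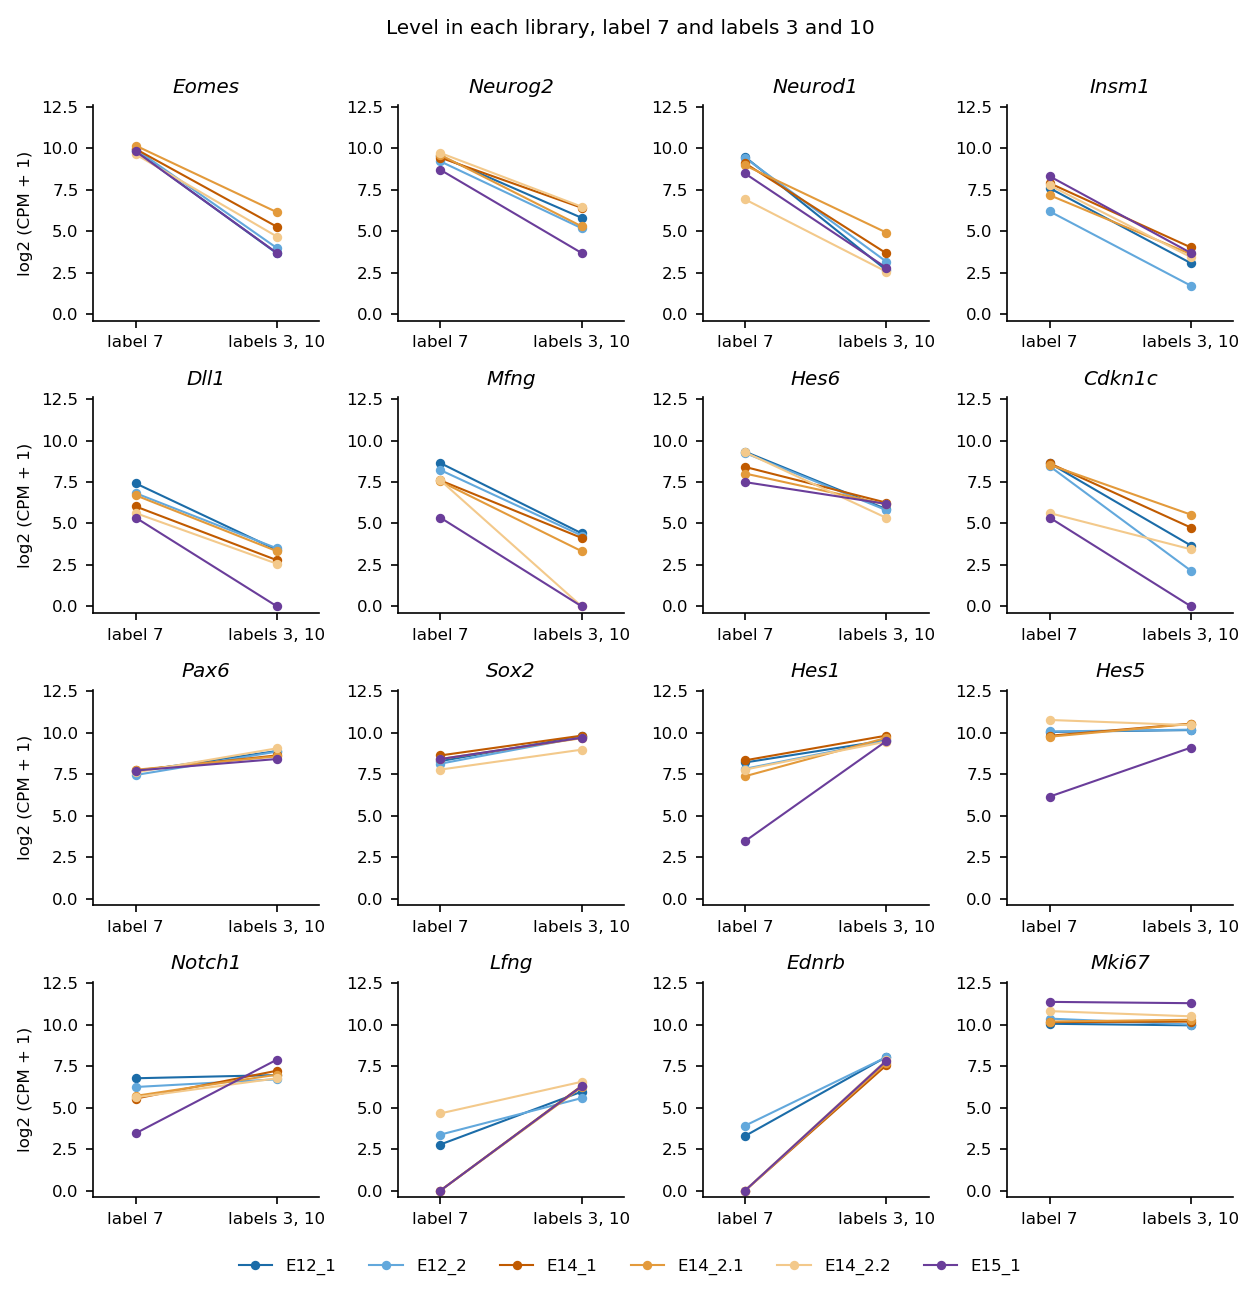
Level of 16 genes as log2 (CPM + 1) in label 7 (left) and in labels 3 and 10 (right), with 1 line for each of the 6 libraries. The lines of Eomes, Neurog2, Neurod1, Insm1 and Dll1 go down to the right in every library, those of Pax6, Sox2, Hes1 and Ednrb go up, Mki67 is nearly level, and E15_1 is the lowest line of label 7 in Hes1, Hes5 and Notch1.

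Genes of division were abundant on both sides. Against the sum of labels 3 and 10, 23.1% of tested S-phase genes and 11.5% of tested G2 and M genes were called. The share was 22.1% over all tested genes, and more of both lists were called against each label alone. Mki67, the proliferation antigen, had 1069, 1326, 1148, 1174, 1816 and 2672 CPM in label 7, against 1001, 1035, 1170, 1264, 1460 and 2530 CPM in labels 3 and 10. Label 7 was above its own library's apical cells in 4 of 6 libraries and the ranges overlapped. Its log2 fold was 0.13 (SE 0.10, edgeR adjusted p = 0.39). Top2a, the topoisomerase that untangles replicated DNA, had a log2 fold of 0.09 (SE 0.09, edgeR adjusted p = 0.56). Both values hold for the sum of the apical labels. Against label 3 alone Mki67 (0.33, edgeR adjusted p = 0.0095) and Top2a (0.37, 0.0016) were called higher. Against label 10 alone Mki67 (-0.09, 0.52) and Top2a (-0.18, 0.125) were not called. Genes of the S-phase list took 0.962% ± 0.150 of UMIs in label 7 and 0.814% ± 0.132 in labels 3 and 10 (SD, n = 6 libraries each), higher in label 7 in 4 of 6 libraries, with an exact two-sided sign-flip p of 0.125. Genes of the G2 and M list took 2.94% ± 0.234 in label 7 and 2.77% ± 0.433 in labels 3 and 10 (SD, n = 6 libraries each), higher in label 7 in 5 of 6, with an exact two-sided sign-flip p of 0.281. The smallest p that 6 libraries allow is 0.0312. In E15_1, where label 3 made up the smallest share of apical cells, the S-phase share was 1.25% in label 7 and 0.590% in labels 3 and 10, and without E15_1 the mean difference dropped to 0.0455 percentage points, against 0.148 with it.

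The apical labels differed in these shares, and label 7 was also set against each of them. The S-phase share averaged 0.962% in label 7, 0.995% in label 3 and 0.608% in label 10, and the G2 and M share averaged 2.94% in label 7, 2.07% in label 3 and 3.48% in label 10. The G2 and M share of label 7 was above that of label 3 in 6 of 6 libraries and below that of label 10 in 6 of 6. Its S-phase share was above that of label 10 in 6 of 6 libraries and above that of label 3 in 1 of 6. Because these lists hold genes that shape the clusters, the shares are a description. Labels 4 and 1, taken here as the other intermediate and apical cells, averaged 0.364% and 0.812% for S phase, and 0.357% and 0.611% for G2 and M.

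**Figure D2:**
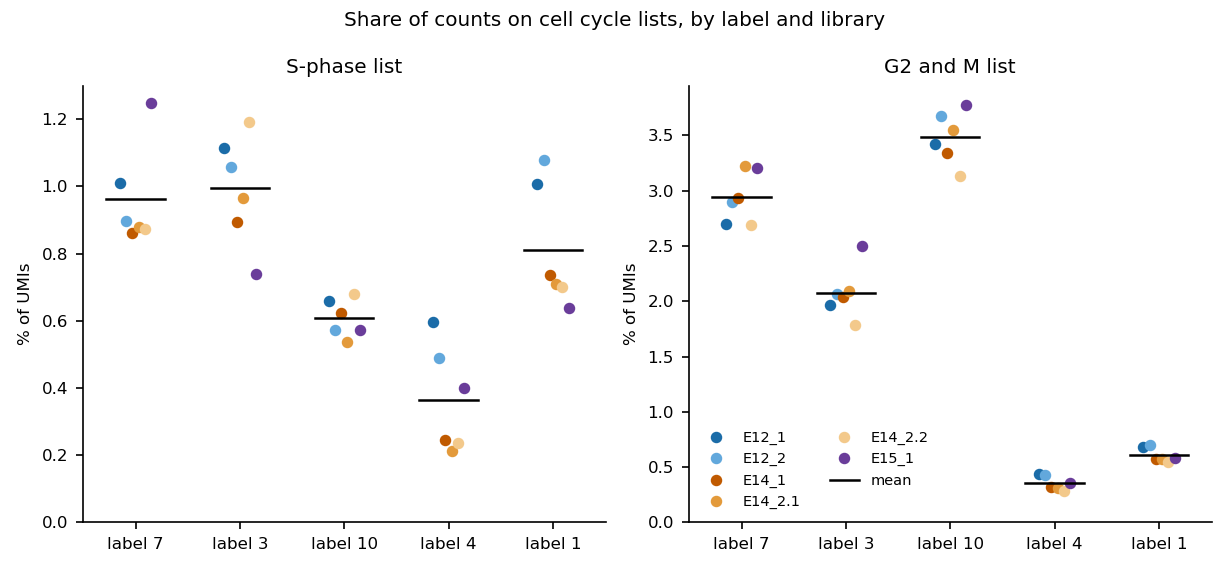
Share of summed UMIs, in %, on the S-phase list (left panel) and on the G2 and M list (right panel) for labels 7, 3, 10, 4 and 1, with 1 point per library and a bar at the mean. In the right panel the label 7 points lie between those of label 3 and of label 10 within each library, and labels 4 and 1 reach at most 0.703%.

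Gene by gene, 39 of the 41 S-phase genes were tested, of which 8 were higher in label 7 and 1 was lower (median log2 fold 0.15). Over all tested genes 11.2% were higher and 10.9% lower. All 52 G2 and M genes were tested, with 5 higher and 1 lower (median 0.11). These counts hold for the sum of the apical labels, and against each label alone the lists went opposite ways. Against label 3 alone, where 28.3% of all tested genes were called, 32 of 49 tested G2 and M genes were higher and 0 lower (median 0.49), and 2 of 39 S-phase genes were higher and 12 lower (median -0.27). Against label 10 alone, where 24.3% of all tested genes were called, 2 of 52 G2 and M genes were higher and 21 lower (median -0.33), and 16 of 32 S-phase genes were higher and 0 lower (median 0.53). Fen1, the flap endonuclease of lagging-strand synthesis, had 320, 204, 193, 258, 48.4 and 160 CPM in label 7, against 152, 84.7, 87.1, 97.3, 78.9 and 65.6 CPM in labels 3 and 10. It was higher in label 7 in every library but E14_2.2, and its log2 fold was 1.14 (SE 0.18, edgeR adjusted p = 3.6e-06). Rrm2, a ribonucleotide reductase subunit, had a log2 fold of 0.89 and did not overlap between the sides. Cdca7, a chromatin factor of dividing cells, was the S-phase gene that was lower, at -0.64. It was not called against label 10 alone (-0.46, edgeR adjusted p = 0.062) or without the E12.5 sample (-0.67, 0.079). Among G2 and M genes, G2e3 (0.70), Kif2c (0.63) and Hmmr (0.49) were higher and Ckap2, a spindle protein, was lower (-0.39). These depended on which apical cells were used. Against label 3 alone Hmmr was at 1.34 and Ckap2 at 0.26, and against label 10 alone Hmmr was at -0.15 (edgeR adjusted p = 0.42). Kif2c (0.02, edgeR adjusted p = 0.93) and G2e3 (0.25, 0.252) were not called against label 10 alone either. Ckap2 was not called without E12_1 (-0.39, edgeR adjusted p = 0.11), E12_2 (-0.40, 0.11), E14_2.1 (-0.42, 0.057) or E15_1 (-0.27, 0.14), and Kif2c was not called without E12_1 (0.48, 0.074).

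Against each apical label in turn most calls kept their sign. Against label 3 alone, 553 of 3834 tested genes were higher (14.4%) and 533 lower (13.9%), together 28.3%. Against label 10 alone, 443 of 3619 were higher and 435 lower, together 24.3%. Of the genes called against both labels together, 918 could be tested against label 3, where 915 had the same sign and 817 were called with it, and 885 against label 10, where 882 had the same sign and 708 were called with it. Over the 3513 genes tested in all 3 fits, 316 were higher and 290 lower in each of them. These fits share the label 7 cells, and the fit against both labels also holds the apical cells of each single-label fit. Agreement in sign is therefore partly built in. A further 35 genes were called in opposite directions against labels 3 and 10, of which 15 were on the S-phase or the G2 and M list. Among those, chosen after their values were seen, the mitotic cyclin Ccnb1 was at 1.67 over label 3 and -0.50 over label 10, the kinase Plk1 at 1.06 and -0.65, the replication clamp Pcna at -0.43 and 1.44, and thymidylate synthase Tyms at -0.37 and 0.91.

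**Figure D3:**
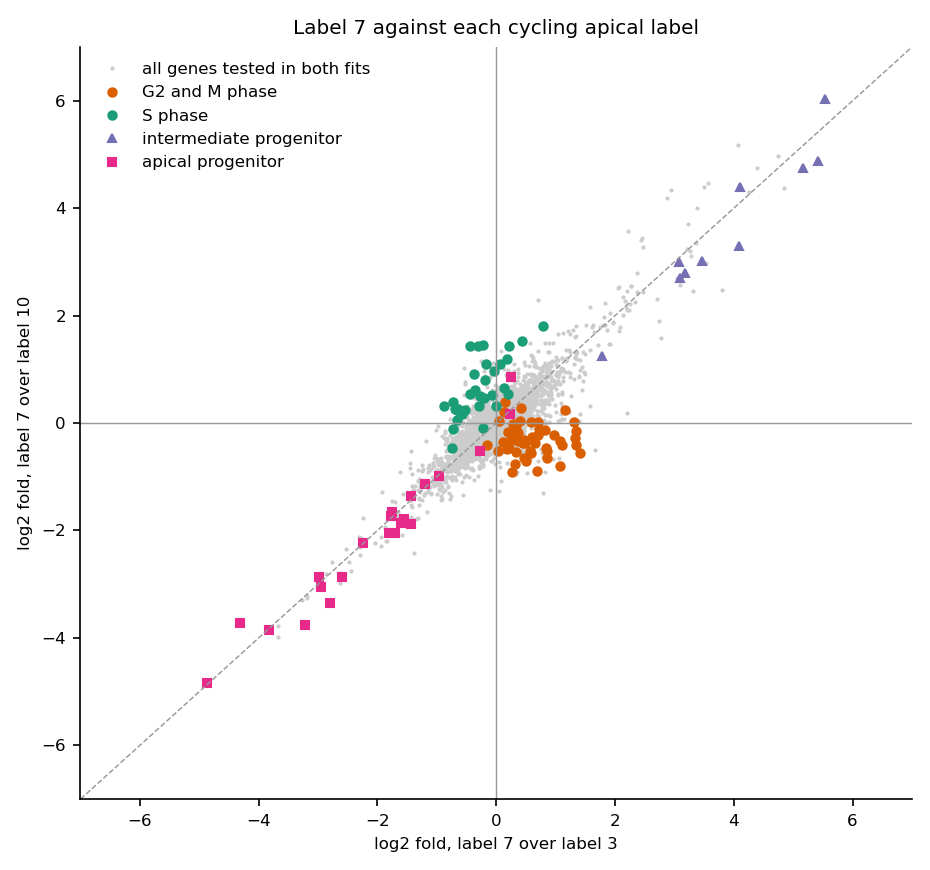
Log2 fold of label 7 over label 3 (x axis) and over label 10 (y axis) for every gene tested in both fits, with the identity and cell cycle lists marked. Intermediate and apical progenitor genes lie along the dashed line of equal folds, G2 and M genes lie mostly to the right and below 0, and S-phase genes lie mostly above 0.

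Genes of intermediate progenitor identity were among the largest differences, and label 7 carried markers of the name that it is given here. Of the 16 genes on this list, 12 were tested and all 12 were higher in label 7 (median log2 fold 3.93, against 11.2% of all genes higher). The filter and the clusters favour this outcome. Eomes had 922, 993, 1001, 1154, 799 and 907 CPM in label 7, against 11.7, 14.9, 37.7, 70.1, 24.7 and 11.9 CPM in labels 3 and 10. The lowest label 7 library was far above the highest apical one. The log2 fold was 5.20 (SE 0.19, edgeR adjusted p = 1.7e-22), a 36.7-fold difference. Neurog2, the proneural factor upstream of Eomes, had 740, 596, 698, 783, 848 and 419 CPM in label 7, against 55.3, 35.5, 84.8, 38.5, 88.8 and 11.9 CPM in labels 3 and 10, with a log2 fold of 3.72 (SE 0.17, edgeR adjusted p = 1.3e-20). The sides did not overlap. Neurod1, the next bHLH factor in the cascade, had the largest log2 fold among the named genes, 5.73 (SE 0.24, edgeR adjusted p = 2.1e-21), with 720, 693, 551, 505, 121 and 359 CPM in label 7, against 5.32, 8.01, 11.8, 29.4, 4.93 and 5.97 CPM in labels 3 and 10. Its label 7 level was lowest in E14_2.2, the library with 10 label 7 cells.

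Insm1, a zinc finger factor that promotes the detachment of intermediate progenitors, had 194, 72.8, 239, 144, 218 and 319 CPM in label 7, against 7.44, 2.29, 15.3, 11.3, 9.87 and 11.9 CPM in labels 3 and 10 (log2 fold 4.30). Sstr2, a somatostatin receptor, was at 5.57, Gadd45g, a growth arrest and DNA damage protein, at 5.0, and Mfng, a fringe enzyme, at 4.14. Gadd45g had 59.8 CPM in label 7 of E15_1, against 5.97 CPM in its apical cells, and 523 to 1193 CPM in label 7 of the other libraries, against 14.8 to 41.2 CPM in their apical cells. Btg2, an antiproliferative gene that marks neurogenic divisions, differed less. It had 212, 190, 165, 113, 218 and 79.8 CPM in label 7, against 57.4, 38.9, 77.7, 65.6, 64.1 and 83.5 CPM in labels 3 and 10. Its log2 fold was 1.52 (SE 0.23, edgeR adjusted p = 1.9e-06), and E15_1 was the library where label 7 was not the higher side. The 4 members below the count filter, named after their values were seen, were Neurog1 with 147 counts in label 7 and 6 in labels 3 and 10, Nhlh1 with 208 and 12, Neurod4 with 31 and 4, and Tac2 with 0 and 1.

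Several other genes with the largest higher folds are known from neurons. Slc17a6, a vesicular glutamate transporter, was at 5.28, Clvs1, a lipid-binding protein of vesicles, at 4.91, Myt1, a zinc finger factor that opposes Notch, at 4.68, Rbfox3, the splicing factor known as NeuN, at 4.60, and Neurod6 at 4.5. Slc17a6 had 185, 115, 211, 237, 48.4 and 120 CPM in label 7, against 4.25, 1.14, 4.71, 2.26, 19.7 and 0 CPM in labels 3 and 10, with its smallest difference in E14_2.2. Neurod6 was the most abundant of these, with 1386 to 2369 CPM in label 7 and 35.8 to 222 CPM in labels 3 and 10. The filter favours members that are high in label 7, and 11.2% of all tested genes were higher. All 10 tested members of the 20 proneural and neuronal transcription factors were higher (median 3.82), and 14 of the 18 tested pan-neuronal genes were higher and 0 lower (median 1.27). Among these Dcx, which stabilises microtubules of migrating neurons, was at 3.49 and Nsg2, an endosomal protein of neurons, at 3.70. The pan-neuronal members that did not pass the test, named after their values were seen, were Stmn2 (0.14), Gap43 (0.34), Map1b (-0.27) and Ncam1 (-0.56), which are known from growing axons. Of the 10 projection neuron markers 6 were tested and 5 were higher, and their summed level was 2493 to 3838 CPM in label 7, against 345 to 605 CPM in labels 3 and 10. Tbr1, the T-box factor of deep-layer neurons, stayed below the filter with 107 counts in label 7 and 29 in labels 3 and 10. Doublets were not removed here, and their part in the neuronal counts was not tested.

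Called migration and laminar genes were mostly higher. Of 20 migration genes 9 were tested, 7 were higher and 1 was lower (median 1.94), against 11.2% and 10.9% of all tested genes. Nrp1, a semaphorin co-receptor, had 300, 242, 184, 247, 170 and 269 CPM in label 7, against 7.44, 17.2, 44.7, 49.8, 19.7 and 23.9 CPM in labels 3 and 10 (log2 fold 3.30), and Plxna2, the plexin that signals with it, was at 3.38. Lrp8, a receptor for reelin, was higher (2.28), whereas Dab1, the adaptor that carries the reelin signal inside the cell, was lower. Dab1 had 29.4, 37.6, 27.5, 72.1, 96.9 and 49.9 CPM in label 7, against 246, 223, 258, 237, 202 and 251 CPM in labels 3 and 10. The sides did not overlap, and its log2 fold was -2.49 (SE 0.22, edgeR adjusted p = 1.2e-11). Among 16 laminar fate genes 7 were tested, 4 were higher and 0 lower, with Bcl11b, a factor of deep-layer neurons, at 1.59, Pou3f2 at 0.96, Sox5 at 0.59 and Pou3f3 at 0.40. Sox5 was not called without E12_1 (0.51, edgeR adjusted p = 0.19), E14_1 (0.53, 0.12) or E14_2.1 (0.45, 0.19). Pou3f3 was not called without E14_1 (0.37, 0.11), E14_2.1 (0.39, 0.11), E14_2.2 (0.37, 0.10) or E15_1 (0.21, 0.23).

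**Figure D4:**
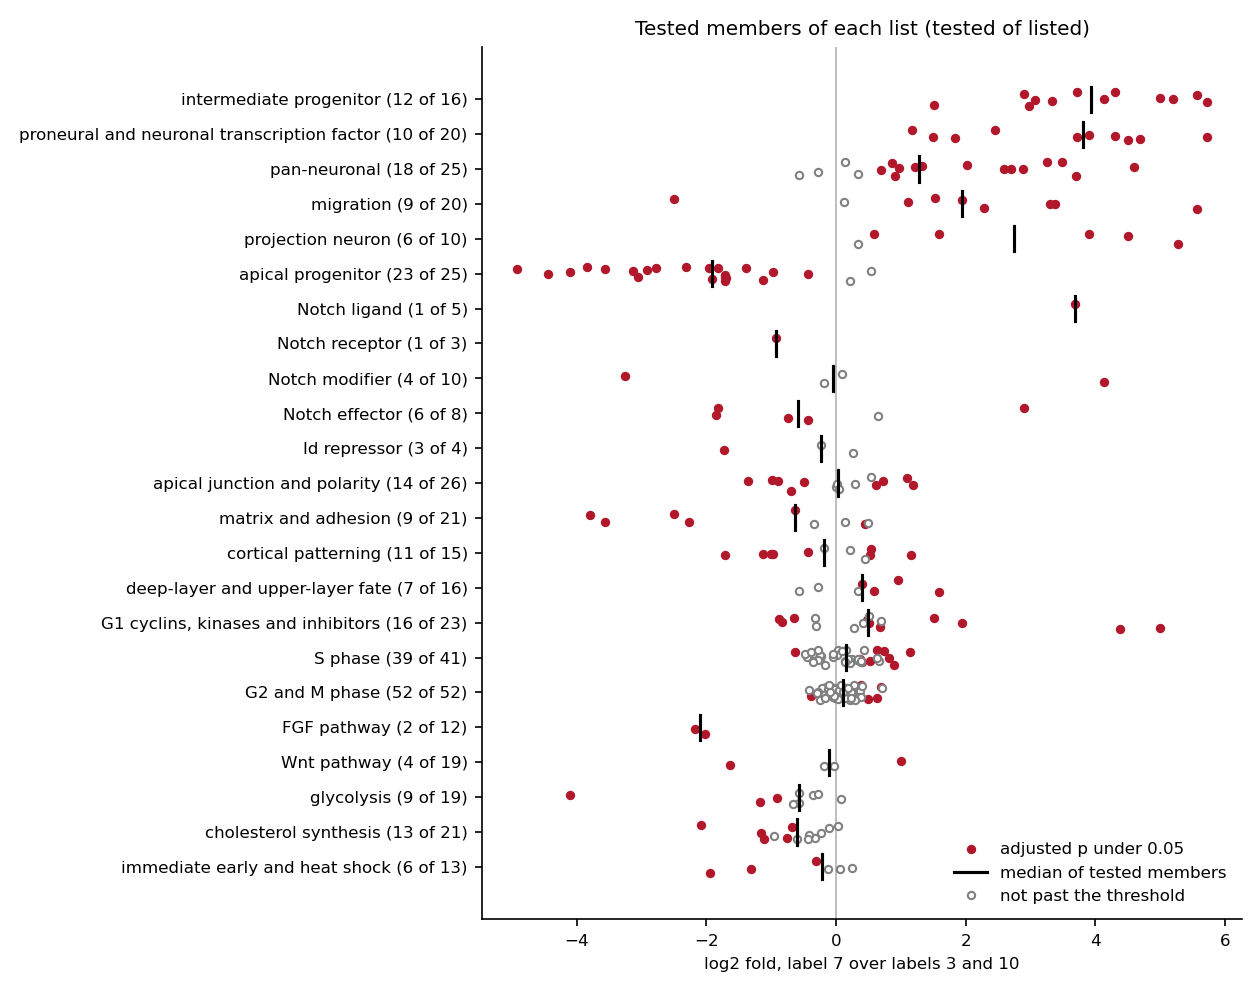
Log2 fold of label 7 over labels 3 and 10 for every tested member of 23 lists, with filled points for edgeR adjusted p under 0.05, open points for genes that did not pass and a bar at the median of the tested members. The bars of the intermediate progenitor, neuronal and migration lists lie right of 0, that of the apical progenitor list lies at -1.91, and those of the S-phase and the G2 and M lists lie near 0.

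Apical progenitor genes were lower in label 7, though not to the same degree. Labels 3 and 10 carried markers of the apical name, which is likewise given here. Of 25 genes 23 were tested and 21 were lower, with 0 higher (median -1.91, against 10.9% of all genes lower). The filter and the clusters favour this outcome too. Ednrb, an endothelin receptor, had 8.81, 14.1, 0, 0, 0 and 0 CPM in label 7, from 9 counts, against 267, 264, 188, 208, 232 and 227 CPM in labels 3 and 10. The log2 fold was -4.92 (SE 0.32, edgeR adjusted p = 1.2e-15), and without E12_2 it was -5.68. Hopx, a homeodomain protein of radial glia, had 4 counts in label 7 and was at -4.44 (-5.82 without E12_2). Aldoc, the aldolase of glial cells, was at -4.11, and Ttyh1, a membrane protein of neural stem cells, at -3.85. The transcription factors of the apical state were reduced and not absent. Pax6 had 203, 174, 211, 216, 194 and 209 CPM in label 7, against 475, 464, 396, 380, 533 and 340 CPM in labels 3 and 10. The label 7 values were close to each other and below every apical value. The log2 fold was -1.13 (SE 0.14, edgeR adjusted p = 6.7e-08), or 2.18-fold lower. Sox2 had 311, 279, 395, 340, 218 and 339 CPM in label 7, against 885, 849, 904, 814, 503 and 829 CPM in labels 3 and 10 (log2 fold -1.39, SE 0.12, edgeR adjusted p = 5.6e-12). The tested members that did not pass were Lhx2 (0.22, edgeR adjusted p = 0.20), a LIM homeodomain factor of the cortex, and Prom1 (0.54, edgeR adjusted p = 0.12), a protein of membrane protrusions, which are named after their values were seen. The other 2 members were below the filter.

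The remaining genes with the largest lower folds were secreted or membrane proteins and metabolic genes of radial glia. Cyr61, a matricellular protein, was at -4.47 from 4 counts in label 7 (-5.08 without E12_2), Igfbp5, which binds insulin-like growth factors, at -4.21, Sparc, a matrix protein, at -3.79, Ptprz1, a receptor phosphatase, at -3.56, and Ndrg2 at -3.29. Acot1, an acyl-CoA thioesterase, was at -3.47, though its reads may be shared with closely related thioesterase genes. The metallothioneins Mt3 (-4.21) and Mt1 (-3.78) bind zinc and copper. Mt3 had 2.94, 21.1, 0, 20.6, 48.4 and 9.97 CPM in label 7, against 53.2, 444, 78.9, 396, 395 and 149 CPM in labels 3 and 10. Its apical level differed widely between libraries of the same stage, E12_1 against E12_2 and E14_1 against E14_2.1, and label 7 was lower in each.

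Notch pathway genes differed in both directions, also among members with the same role. Of the 5 ligand genes, 1 passed the count filter. Dll1 had 170, 113, 64.3, 103, 48.4 and 39.9 CPM in label 7, against 9.57, 10.3, 5.89, 9.05, 4.93 and 0 CPM in labels 3 and 10. It was higher in label 7 in every library without overlap, and its log2 fold was 3.69 (SE 0.33, edgeR adjusted p = 1.1e-11). Dll3, which lowers Notch activity inside the cell that makes it, had 76 counts in label 7 and 7 in labels 3 and 10. The ligand Jag1 went the other way, with 2 counts in label 7 and 61 in labels 3 and 10. Dll4 had 1 count in label 7 and 0 in labels 3 and 10, and Jag2 had 0 and 2.

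The receptor that passed the filter was lower. Notch1 had 109, 75.1, 45.9, 51.5, 48.4 and 9.97 CPM in label 7, against 124, 104, 150, 127, 109 and 239 CPM in labels 3 and 10. Label 7 was below the apical cells of its own library in 6 of 6, the ranges met in E12_1, and the gap was widest in E15_1. The log2 fold was -0.93 (SE 0.26, edgeR adjusted p = 0.0066), not called without the larger E14.5 sample (-0.77, 0.11), and its change per embryonic day was -0.84 (SE 0.21, edgeR adjusted p = 0.058). Notch2 had 12 counts in label 7 and 170 in labels 3 and 10, and Notch3 had 1 and 54. The receptors are also modified by fringe enzymes, and the fringe genes tested differed in opposite directions. Mfng had 400, 298, 193, 185, 194 and 39.9 CPM in label 7, against 20.2, 18.3, 16.5, 9.05, 0 and 0 CPM in labels 3 and 10, a 17.6-fold higher level (SE 0.26 on the log2 scale, edgeR adjusted p = 2.9e-16). Lfng had 5.88, 9.39, 0, 0, 24.2 and 0 CPM in label 7, against 61.7, 46.9, 78.9, 74.6, 93.7 and 77.6 CPM in labels 3 and 10. It was 9.51-fold lower (log2 fold -3.25, SE 0.45, edgeR adjusted p = 3.9e-07) from 7 counts in label 7, and -3.90 on the log2 scale without E12_2. Rfng, the remaining fringe gene, had 28 counts in label 7 and 84 in labels 3 and 10 and was not tested. Per UMI its levels on both sides were close, since the apical sum is larger. The ubiquitin ligase Mib1 (0.09, edgeR adjusted p = 0.89) and the protease Adam10 (-0.19, edgeR adjusted p = 0.57), which act on ligand and receptor, did not pass the test.

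Among 8 effectors 6 were tested, 4 were lower and 1 was higher, against 10.9% and 11.2% of all tested genes. Hes1, a repressor of proneural genes, had 294, 225, 321, 165, 218 and 9.97 CPM in label 7, against 745, 731, 906, 826, 705 and 722 CPM in labels 3 and 10. The sides did not overlap, and E15_1 stood far below the other label 7 values. The log2 fold was -1.82 (SE 0.18, edgeR adjusted p = 9.3e-11). Nrarp, a feedback inhibitor of Notch, was at -1.84, and Hey1, a repressor related to Hes1, was at -0.74 (edgeR adjusted p = 0.0073) and was not called without E12_2 (-0.71, edgeR adjusted p = 0.079). Hes6, which opposes Hes1, was higher, with 643, 610, 340, 258, 630 and 179 CPM in label 7, against 57.4, 54.9, 75.4, 70.1, 39.5 and 71.6 CPM in labels 3 and 10 (log2 fold 2.91, SE 0.21, edgeR adjusted p = 1.3e-14). Rbpj, the DNA-binding partner of activated Notch, was at 0.65 (edgeR adjusted p = 0.15). Hey2 had 1 count in label 7 and 45 in labels 3 and 10, and Heyl had 0 and 1.

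Hes5, a further effector, varied between libraries. It had 1058, 1078, 900, 865, 1744 and 69.8 CPM in label 7, against 1143, 1162, 1497, 1479, 1401 and 549 CPM in labels 3 and 10. In both E12.5 libraries the sides were nearly equal, in E14_1 and E14_2.1 label 7 was lower, in E14_2.2 it was higher, and in E15_1 it was far lower. The log2 fold of -0.43 (SE 0.15, edgeR adjusted p = 0.033) was not called against label 3 alone (-0.27, 0.060), with DESeq2 (-0.62, 0.33), per sample (-0.49, 0.20), without E14_1 (-0.38, 0.12) or without E14_2.1 (-0.36, 0.18). Its change per embryonic day was -0.34 (SE 0.11, edgeR adjusted p = 0.21). E15_1 had 32 label 7 cells and the highest mitochondrial share on both sides, and the part of either in its low Notch gene levels was not tested. Among the Id genes, which block bHLH factors, Id4 was lower (-1.73), Id1 (-0.22) and Id2 (0.26) did not pass (without E15_1, Id2 was at 0.41, edgeR adjusted p = 0.012), and Id3 had 4 counts in label 7 and 293 in labels 3 and 10.

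The sequence that Notch acts on through Rbpj was looked up before the starts of these genes, because Hes5 and Lfng are both Notch target genes and yet differed by unlike amounts. The promoters below are from RefSeq (GRCm38.p6), 250 bases before to 50 after the start, 5′ to 3′ on the gene's strand, with the Rbpj core GTGGGAA or its reverse complement TTCCCAC in capitals. Of 7 Notch target genes looked up, 4 were in the table, and Hes5, Hey2 and Lfng held the motif, which 6.38% of all 32851 promoters of this length held on either strand.
Hes5 (chr4:154960673-154960972, plus strand): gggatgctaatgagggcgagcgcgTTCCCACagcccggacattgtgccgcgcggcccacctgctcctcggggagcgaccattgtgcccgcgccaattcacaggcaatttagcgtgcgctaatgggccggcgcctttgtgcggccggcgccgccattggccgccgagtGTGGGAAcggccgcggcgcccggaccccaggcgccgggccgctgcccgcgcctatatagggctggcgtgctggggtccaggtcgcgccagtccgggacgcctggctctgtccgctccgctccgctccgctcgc
Lfng (chr5:140607091-140607390, plus strand): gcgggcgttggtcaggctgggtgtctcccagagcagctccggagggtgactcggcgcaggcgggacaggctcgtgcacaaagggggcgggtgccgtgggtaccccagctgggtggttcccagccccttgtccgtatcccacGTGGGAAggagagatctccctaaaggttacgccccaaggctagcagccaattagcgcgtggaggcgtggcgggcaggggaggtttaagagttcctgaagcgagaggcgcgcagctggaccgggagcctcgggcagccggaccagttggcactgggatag
Hes5 held 2 matches, which began 226 and 83 bases before the start, and Lfng held 1, which began 109 bases before it. A match is a description of the letters and not of binding. The E-box CAGATG (or CATCTG), to which proneural factors bind, occurred in 17.2% of all promoters and in that of 1 of the 8 genes with the largest higher folds that the table held, Slc17a6.

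Genes of the early cell cycle differed in both directions. Of 23 cyclins, kinases and inhibitors of G1, 16 were tested, 7 were higher and 3 lower (median 0.50), against 11.2% and 10.9% of all tested genes. Cdkn1c, the CDK inhibitor p57, had 397, 350, 395, 371, 48.4 and 39.9 CPM in label 7, against 11.7, 3.43, 25.9, 45.2, 9.87 and 0 CPM in labels 3 and 10. It was higher within every library, although the label 7 value of E15_1 was below the apical value of E14_2.1, and its log2 fold was 4.38 (SE 0.28, edgeR adjusted p = 6.4e-16). Cdkn1b, the CDK inhibitor p27, had 726, 671, 771, 649, 702 and 548 CPM in label 7, against 460, 412, 536, 504, 543 and 501 CPM in labels 3 and 10. The sides did not overlap, and the log2 fold was 0.51 (edgeR adjusted p = 0.00067). Rb1, the retinoblastoma protein that restrains entry to S phase, was at 1.95 (SE 0.24, edgeR adjusted p = 2.9e-08). The G1 cyclins Ccnd2 and Ccnd1 were lower over these 6 libraries, but not in the libraries outside the rule. Ccnd2 had 831, 852, 624, 402, 969 and 588 CPM in label 7, against 1820, 1716, 1108, 1142, 927 and 794 CPM in labels 3 and 10. Label 7 was lower in every library but E14_2.2, and the log2 fold was -0.87 (SE 0.13, edgeR adjusted p = 6.8e-07). Ccnd1 had 176, 136, 45.9, 51.5, 24.2 and 189 CPM in label 7, against 289, 238, 131, 92.7, 93.7 and 101 CPM in labels 3 and 10. E15_1 was the library in which label 7 was higher. The log2 fold was -0.65 (SE 0.20, edgeR adjusted p = 0.017), and it was not called without E12_1 (-0.62, 0.13), E12_2 (-0.57, 0.16) or E14_1 (-0.58, 0.052), with DESeq2 (-0.65, 0.12), per sample (-0.62, 0.16), with no library block (-0.45, 0.50) or with E10_1 added (-0.34, 0.30). With E10_1 added Ccnd2 was at -0.73 (edgeR adjusted p = 0.00017). In E10_1 itself, Ccnd1 had 847 CPM in label 7 and 226 CPM in labels 3 and 10, and Ccnd2 had 1150 CPM in label 7 and 679 CPM in labels 3 and 10. In the pool of libraries with under 10 cells on a side, Ccnd1 had 156 CPM in label 7 and 132 CPM in labels 3 and 10, and Ccnd2 had 754 CPM in label 7 and 621 CPM in labels 3 and 10. Both were thus higher in label 7 there, without replicates. Tob1, an antiproliferative gene related to Btg2, was lower (-0.83, edgeR adjusted p = 0.011) and was not called without E12_1 (-0.79, 0.074).

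Genes of apical junctions and polarity were divided. Of 26 genes 14 were tested, 4 were higher and 5 lower (median 0.03), against 11.2% and 10.9% of all tested genes. Cdh2, the N-cadherin of adherens junctions, had 291, 357, 312, 361, 145 and 309 CPM in label 7, against 504, 525, 456, 584, 587 and 388 CPM in labels 3 and 10, without overlap (log2 fold -0.69, SE 0.13, edgeR adjusted p = 0.00014). Pvrl3, a nectin, was at -1.36, Mpp5, the Crumbs scaffold Pals1, at -0.90, and Tjp1, the tight junction protein ZO-1, at -0.99. Tjp1 was not called without E12_2 (-0.87, edgeR adjusted p = 0.16), E14_2.1 (-0.87, 0.067) or E14_2.2 (-0.85, 0.054). Ezr, which links membrane to actin, was higher (1.18), with 275 to 716 CPM in label 7 and 153 to 240 CPM in labels 3 and 10, and so were Cdc42ep4 (1.10) and the polarity proteins Pard3 (0.73) and Pard6g (0.63). Pard3 was not called without E12_2 (0.62, edgeR adjusted p = 0.078), and Pard6g was not called without E12_2 (0.69, 0.074), E14_1 (0.53, 0.13) or E14_2.1 (0.50, 0.13). Cdc42ep4 was not called against label 10 alone (0.62, edgeR adjusted p = 0.15). None of the 9 genes listed for detachment from the ventricle passed the count filter. Their summed level was 120 to 206 CPM in label 7, against 93.7 to 149 CPM in labels 3 and 10. With no count filter, where 4.27% of 15597 genes were higher and 6.02% lower, 3 of the 9 were higher and 1 was lower. The higher ones were Scrt2 (5.64, edgeR adjusted p = 1.3e-09), Lzts1 (2.59, 7.7e-06) and Akna (2.50, 0.0034), and Plekha7, an adherens junction protein, was lower (-2.29, 3.8e-08).

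Called genes of growth factor signalling, matrix and metabolism were mostly lower. Over all tested genes 10.9% were lower and 11.2% higher, and several of these lists had few tested members. Fgfr1 (-2.18) and Fgfr3 (-2.02) were the tested genes of the 12 on the FGF list, and neither overlapped between the sides. Of 19 Wnt pathway genes 4 were tested. Sfrp1, a secreted Wnt antagonist, was lower, with 387 to 509 CPM in label 7 and 871 to 1632 CPM in labels 3 and 10 (log2 fold -1.63), and the receptor Fzd1 was higher (1.0, edgeR adjusted p = 0.018) with 0 CPM in label 7 of E15_1. Fzd1 was not called with DESeq2 (0.75, DESeq2 adjusted p = 0.255) or with no library block (0.79, edgeR adjusted p = 0.212). In the matrix list 9 of 21 genes were tested, 5 were lower and 1 higher. Ptn, a growth factor that binds Ptprz1, was lower (-2.26), with 253 to 533 CPM in label 7 and 1356 to 2289 CPM in labels 3 and 10, while Mdk, which is related to it, was higher (0.44). Mdk was not called against label 3 alone (0.23, edgeR adjusted p = 0.087). The integrin Itgb8 was at -2.5. Glycolysis had 3 lower and 0 higher of 9 tested (median -0.58), with Ldha at -1.18 and Eno1 at -0.90 after Aldoc. Cholesterol synthesis had 5 lower and 0 higher of 13 tested (median -0.60), with Hmgcs1, the synthase that supplies the pathway, at -1.11. Jun was lower (-1.94), with 138 to 412 CPM in label 7 and 802 to 1090 CPM in labels 3 and 10, and so was Fos (-1.32, and -2.0 without E14_1), among 6 tested immediate early and heat shock genes of which 3 were lower and 0 higher.

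Cortical patterning factors differed in both directions. Of 15, 11 were tested, 3 were higher and 5 lower (median -0.18), against 11.2% and 10.9% of all tested genes. Emx1, a homeobox gene of the dorsal forebrain, had 455, 310, 395, 391, 266 and 150 CPM in label 7, against 204, 142, 180, 138, 153 and 77.6 CPM in labels 3 and 10. It was higher within each library (log2 fold 1.16, SE 0.15, edgeR adjusted p = 3.8e-08), whereas its relative Emx2 was lower (-0.97). Gli3, the effector of hedgehog signalling, was at -1.71. Dmrta2 (0.53, edgeR adjusted p = 0.044) was not called without E12_1 (0.24, 0.55), E12_2 (0.38, 0.34), E14_1 (0.56, 0.064) or E14_2.1 (0.56, 0.075).

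Markers of other cell types were low on both sides, apart from those of erythroid and Cajal-Retzius cells. Summed over each list, interneuron markers reached 11.8 CPM in label 7 and 14.8 CPM in labels 3 and 10, microglial markers 10.3 and 0 CPM, endothelial and mural markers 0 and 4.52 CPM, mesenchymal markers 0 and 30.6 CPM, oligodendrocyte lineage markers 5.88 and 9.87 CPM, and erythroid markers 96.9 and 70.1 CPM, each the highest library. None of their genes passed the count filter. Cajal-Retzius markers reached 138 CPM in label 7 and 13.6 CPM in labels 3 and 10. Of the 98 counts of that list in label 7, 72 came from Nhlh2, which is also on the proneural list, while Reln, which defines these cells, had 0 counts in label 7 and 5 in labels 3 and 10.

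Few genes passed the test of a change of the difference with stage. Its change per embryonic day was called for 21 of 5000 genes (0.420%), 8 higher and 13 lower, against 431 at an unadjusted p under 0.05. In the higher direction, the difference of Meis2, a homeobox gene, moved by 0.47 per day (SE 0.08, edgeR adjusted p = 0.0021). Meis2 had 491, 770, 882, 1009, 896 and 1376 CPM in label 7, against 984, 1400, 845, 1226, 977 and 901 CPM in labels 3 and 10. Label 7 was the lower side in both E12.5 libraries and the higher side in E14_1 and E15_1. Pou3f3, a POU factor of upper-layer neurons, had 276, 343, 496, 608, 799 and 997 CPM in label 7, against 299, 383, 345, 416, 478 and 394 CPM in labels 3 and 10, and its difference moved by 0.44 per day (SE 0.10, edgeR adjusted p = 0.016). Label 7 was slightly lower at E12.5 and higher in each later library. Zbtb38 (1.03), Zfp830 (0.91), Mllt3 (0.48) and Auts2 (0.41) moved the same way.

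In the lower direction, Slc30a10, a manganese transporter, moved by -1.55 per day (SE 0.33, edgeR adjusted p = 0.011). It had 94.0, 98.6, 119, 185, 218 and 69.8 CPM in label 7, against 1.06, 3.43, 25.9, 13.6, 34.5 and 59.7 CPM in labels 3 and 10. It was higher in label 7 in every library, and the apical level of E15_1 came close to that of label 7. Mfap4 (-1.31), Timp2 (-1.27), Sptbn1 (-1.15), Pcdh17 (-1.09) and Amotl2 (-0.86) were the other named genes. These calls rest on the 2 libraries of E12.5: 0 genes were called without E12_1 (184 of 3878 at an unadjusted p under 0.05), without E12_2 (176 of 3990) or with the libraries summed per sample (179 of 4255). Without E15_1, 8 of the 12 named genes were not called, Pou3f3 (0.35, edgeR adjusted p = 0.21) and Slc30a10 (-1.27, 0.14) among them. Zbtb38 was also lost without E14_2.2, Mllt3 without E14_2.1, and Amotl2 without either. Against label 3 alone 4 genes were higher and 4 lower, and against label 10 alone 9 were higher and 9 lower. The mix of labels 3 and 10 moved with stage, and its part in these changes was not tested.

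The intermediate and apical cells with lower shares of G2 and M genes were compared in the same way. Label 4 was set against label 1 in the same 6 libraries, with 730 and 1079 cells, and mean Eomes was 1830.4 CPM in label 4 and 48.1 CPM in label 1. In this comparison 895 of 4731 genes were higher (18.9%) and 888 lower (18.8%), together 37.7%. Of the genes called between label 7 and labels 3 and 10, 1023 were tested there, of which 791 were called with the same sign and 10 with the opposite one. In a fit of all 4 cell groups, the difference of label 7 from labels 3 and 10 exceeded that of label 4 from label 1 for 250 of 5642 genes (4.43%) and was below it for 28 (0.496%). Of the 250, 67 were on the S-phase or G2 and M lists. Mki67 was one of the cycle genes called higher, with 1534 CPM in label 7, 1410 in labels 3 and 10, 54.3 in label 4 and 227 in label 1. The named genes of this kind were Cep55, Sgol2, Pbk, Ccnb2, Tk1 and Neil3, with differences of differences of 2.94 to 3.82. Cep55 averaged 198 CPM in label 7, 208 in labels 3 and 10, 0.664 in label 4 and 11.5 in label 1. Ccnb2 averaged 293, 300, 5.15 and 57.5 CPM in the same order. Between label 7 and labels 3 and 10, Cep55 (0.17), Pbk (-0.14), Ccnb2 (-0.01) and Tk1 (-0.01) were not called, while Sgol2 (0.88) was.

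**Figure D5:**
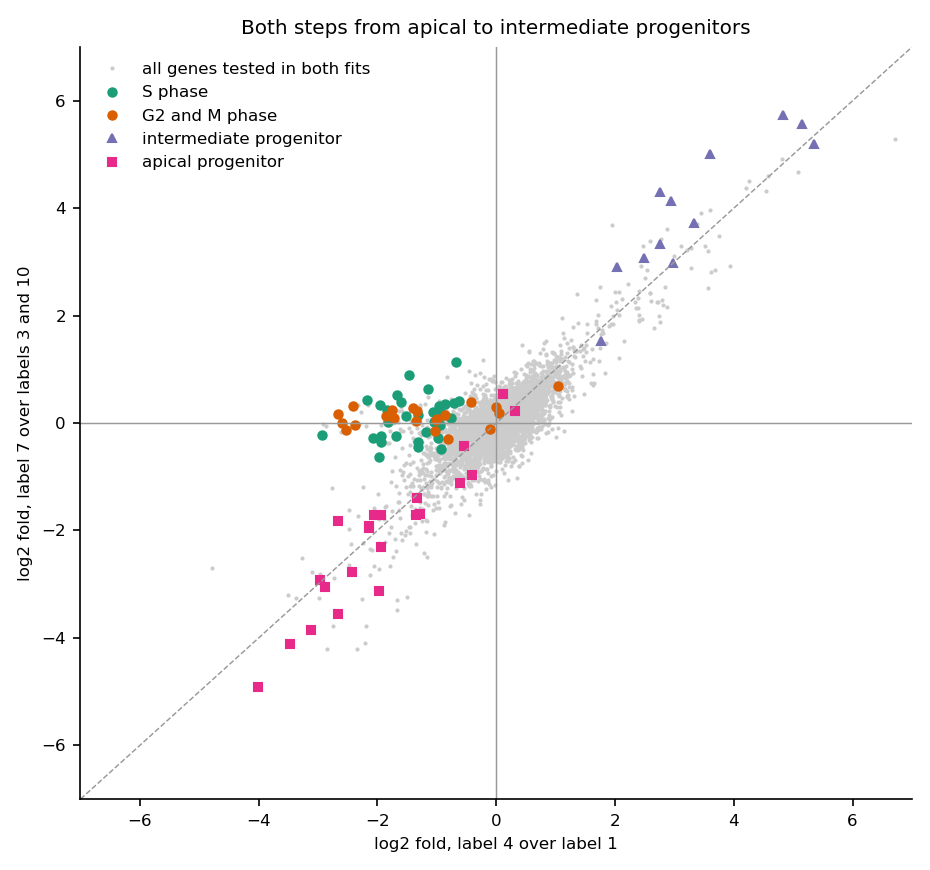
Log2 fold of label 4 over label 1 (x axis) and of label 7 over labels 3 and 10 (y axis) for every gene tested in both fits. Identity genes lie near the dashed line of equal folds, and S-phase, G2 and M genes lie mostly left of 0 on the x axis and near 0 on the y axis.

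Some identity genes differed more between label 7 and labels 3 and 10 than between labels 4 and 1. In all, 36 genes, cycle genes included, were both called higher in label 7 and called higher in this difference of differences. Among list members these included Dll1 (a difference of differences of 1.74, SE 0.47, edgeR adjusted p = 0.014), Mfng (1.11, SE 0.33, edgeR adjusted p = 0.033) and Hes6 (0.94, SE 0.24, edgeR adjusted p = 0.010), which were picked after their values were seen. Hes1 (0.94, edgeR adjusted p = 0.041) and Id4 (0.75, edgeR adjusted p = 0.049) were also called higher in it, being lower in both comparisons but by less between label 7 and labels 3 and 10. Hes1 averaged 206 CPM in label 7, 772 in labels 3 and 10, 91.6 in label 4 and 623 in label 1. A further 15 genes were called lower in both, among them Mt3 (-1.87), Acot1 (-1.77), Rlbp1 (-1.68), Ndrg2 (-1.63), Mt1 (-1.53) and, picked after its value was seen, Dab1 (-1.32). Mt3 averaged 17.2 CPM in label 7, 253 in labels 3 and 10, 56.3 in label 4 and 288 in label 1. Chga, chromogranin A, had the most negative value of the named genes (-2.58), with 71.8, 7.70, 168 and 2.60 CPM in the same order. These calls were not stable to leaving out a library. Dll1 was not called without E12_1, E12_2 or E14_2.1 (1.52 to 1.81, edgeR adjusted p of 0.050 to 0.12), and Hes6 was not called without E12_1 or E12_2 (0.74 in each, 0.15 and 0.12). Mfng (0.82 to 1.22, 0.057 to 0.35) and Id4 (0.54 to 0.82, 0.062 to 0.35) were called only when E15_1 was the library left out. Hes1 was called without E14_2.1 or E15_1 and in no other such fit (0.75 to 0.95, 0.067 to 0.25). Dab1 was not called without E12_1 (-0.89, 0.21) or E12_2 (-1.28, 0.050). Mt3 was not called without E12_2 (-1.84, edgeR adjusted p = 0.062), Rlbp1 without E14_2.1 (-1.38, 0.069), Acot1 without E12_1, E14_1 or E14_2.2 (-1.65 to -1.70, adjusted p of 0.057 to 0.097), Chga without E12_1, E14_1 or E14_2.1 (-2.20 to -2.92, 0.061 to 0.15) and Cep55 without E12_2 (3.04, 0.081). Cep55 was at 5.11 without E14_2.1, Ndrg2 at -2.26 without E14_1, and Sgol2 at 4.13 and Tk1 at 3.56 without E12_1. Mt1 was at -2.20 without E12_2 and was not called without E12_1, E14_1, E14_2.1 or E14_2.2 (-1.11 to -1.73, 0.050 to 0.17).

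In the libraries outside the rule, none of the genes with the largest folds went the other way, while some genes with smaller folds did. In E10_1, with 62595 UMIs of label 7 and 35353 of labels 3 and 10, 10 of the 12 genes with the largest higher folds were higher in label 7 and 0 were lower, and 9 of the 12 with the largest lower folds were lower and 0 higher. The others were at 0 on both sides. Eomes had 82 counts there in label 7 and 0 in labels 3 and 10. In the libraries with under 10 cells on a side, pooled to 38 label 7 cells and 65 of labels 3 and 10, 12 of 12 were higher and 12 of 12 lower. Hes5 had 15 counts of 153836 in label 7 of that pool, against 134 of 273572 in labels 3 and 10. Notch1, called lower over the 6 libraries, had 16 counts in label 7 of E10_1 and 6 in labels 3 and 10 (256 and 170 CPM), and 84.5 and 128 CPM in the pool. Ccnd1 and Ccnd2, also called lower, were higher in label 7 both in E10_1 and in the pool. Mki67 was higher in label 7 of E10_1 (1454 CPM, against 651 CPM in labels 3 and 10) and lower in the pool (1859 CPM, against 2270.0 CPM). These are counts of single pools with no replicate. The labels of these cells also came from clusters built from these counts, so the directions are no independent check.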

How the data were processed

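Single-cell gene counts (UMIs) of 12 libraries were deposited by the authors as 1 matrix of 21862 genes and 10261 cells, with a cluster number for each cell. Per the labels' protocols the libraries were made with Drop-seq protocol 3.1 and Drop-seq tools 3.1, and the submitters' processing notes name Seurat 3.1.5 and mm10. The smallest number of genes detected in a cell of the matrix was 501. How doublets were treated is not given in the sources used here, and no doublet caller was run.

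Counts were summed per library and side and tested with edgeR 4.0.16 (R 4.3.3): filterByExpr, TMM, and the quasi-likelihood test with the library as a block, two-sided, Benjamini-Hochberg over all tested genes, called under 0.05. Both sides come from the same library, and that is the source of the pairing. Change with stage was the interaction of side with embryonic day, and the difference of differences was fitted over 4 cell groups per library. Shares of UMIs were compared by exact sign flips over libraries. The scripts were tested on simulated counts. DESeq2 1.42.0, median-ratio size factors, no count filter, no block, other apical cells, other cell minimums, thinned sums, sums per sample and each library left out were the alternatives.

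Named genes were those called with a mean of at least 50 CPM over both sides and the same direction in every library, the 12 with the largest log2 fold each way, up to 4 called members of each list per direction, 6 each way in the other tests, and a set of markers and Notch genes given whatever their values. Some genes that this rule or the lists hold are not reported here. Members and lists were chosen with earlier results of these data known. The clusters were made from the same counts, and libraries of 1 sample may share tissue.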

Additional observations from a re-analysis of the deposited data

Results flagged for a closer look

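The log2 differences between label 7 and labels 3 and 10 within each library (with a prior count of 2) were screened for 1 library far from the other 5, for 112 results. The gap of the farthest library to its neighbour, as a share of the whole range, passed Dixon's critical value for 6 samples for 15 of them, and chance gives this in about 1 in 20.

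E15_1 was the far library for 4 Notch genes. It stood lowest for Hes1 (-5.59, against -1.30 to -2.31 elsewhere, a gap of 0.764 of the range), Hes5 (-2.88, against -0.79 to 0.28, a gap of 0.660), Hey1 (-3.40, a gap of 0.627) and Notch1 (-4.02, against -0.16 to -1.55, a gap of 0.640). It was also the far library for Ckap2 (0.689), Fzd1 (-3.03, a gap of 0.674), Rad51ap1 (4.36, a gap of 0.791), Tk1 (2.93, a gap of 0.714) and the S-phase share (a gap of 0.849). E15_1 had 32 label 7 cells, and label 3 made up 28.3% of its apical cells and 10.6% of its apical UMIs. The part of either in these values was not tested. Label 7 of E15_1 held 100284 UMIs, and Hes1 and Notch1 were near the floor there. The prior count of 2 therefore limits how exact their differences are.

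E14_2.2, with 10 label 7 cells, was the far library for Cdh2 (-2.01, a gap of 0.741), Fen1 (-0.68, a gap of 0.873), Pvrl3 (-4.53, a gap of 0.672), Slc17a6 (1.07, a gap of 0.815) and Top2a (-0.26, a gap of 0.672). E14_1 was the far library for Igfbp5 (-1.42, a gap of 0.695).

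The difference changed with embryonic day, by the edgeR interaction test at an adjusted p under 0.05, for 13 genes named here. The change in log2 fold per day was positive for Zbtb38 (1.026), Zfp830 (0.915), Mllt3 (0.477), Meis2 (0.468), Pou3f3 (0.436) and Auts2 (0.414). It was negative for Slc30a10 (-1.554), Mfap4 (-1.309), Timp2 (-1.269), Sptbn1 (-1.150), Pcdh17 (-1.091), Amotl2 (-0.861) and Id4 (-0.543).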

How the results depend on the processing

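The 560 genes higher and 544 lower in label 7 became 199 and 196 without the E12.5 sample, 320 and 296 with libraries summed per sample, 364 and 344 with no replicate block, and 324 and 281 with sums thinned to the smaller side. With no count filter 939 were lower. Leaving out 1 library gave 351 to 717 higher and 323 to 700 lower, with the low ends without E12_1 or E12_2. DESeq2 called 428 and 403. Of 101 named calls, 12 were lost with DESeq2, 18 without the block, 21 without the larger E14.5 sample and 0 with size factors. Among named genes called in the main fit or in the alternative, signs turned for Hmmr (-0.15) and Tk1 (0.76) against label 10 alone. They also turned for Ccnb2 (0.57) and Ckap2 (0.26) against label 3 alone, and for Dmrta2 (-0.11) without the E12.5 sample (up to 0.74 without E15_1). Tk1 and Ccnb2 were at -0.01 in the main fit. Some genes called in neither fit turned too, such as Mki67 (-0.09) and Top2a (-0.18) against label 10 alone. The S-phase share differed by -0.0327 percentage points from label 3 alone and 0.354 from label 10 alone, and the G2 and M share by 0.868 and -0.540. The 8 higher and 13 lower genes of the stage test became 3 and 7 with E14.5 and E15.5 against E12.5, 4 and 4 against label 3 alone, 16 and 24 with labels 3 and 10 weighted equally, 0 and 0 per sample, and 0 to 9 (13 without E14_2.1) and 0 to 17 with 1 library left out. The difference of differences had 55 lower genes with no filter, and 156 to 232 higher and 17 to 65 lower with 1 library left out. The uses of label 3, label 10 and equal weight in the stage test and the addition of E10_1 were chosen after seeing the data. The cause was not tested. Depth limits genes below the filter, which the summed counts of 10 to 157 label 7 cells per library could not test.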
